A study of Mus musculus with 14 samples.

Results

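Leukocyte receptors and CD surface antigens were followed through 14 Affymetrix arrays of 5 mammary populations sorted from mice. Members were the genes whose probe sets carried a single symbol beginning with Cd and a digit, Ly and a digit, Ptprc, Fcgr, Fcer, Clec, Tlr, C1qa to C1qc, Tyrobp, Lyz, Lilr, Pilr, Lcp or Laptm5. Cd14, Cd36, Cd55, Cd2ap and Cd2bp2 were left out. This gave 33 genes with 46 probe sets, of 6044 named genes with 8499 probe sets. Members were chosen by symbol, among rows that had passed the filter on variation described below. Tyrobp, Cd24a and Ly6a were not analysed here.

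CD numbers were first given to surface antigens that monoclonal antibodies detect on white blood cells, but many CD proteins are also made by epithelium, endothelium or most cells. Tetraspanins such as CD9, CD81, CD82 and CD151 organise integrins and other receptors in the membrane, Ly6 proteins are small antigens tethered by a lipid anchor, and Toll-like receptors sense microbial and damage-associated molecules. CD45, encoded by Ptprc, is the antigen by which leukocytes are usually kept out of a mammary epithelial sort, and CD31, encoded by Pecam1, serves the same purpose for endothelium.

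All cells came from virgin female C57BL/6 mice whose labelled age was 6 to 8 weeks; the labels name no drug treatment and no engineered allele. There were 3 basal populations, Thy-1-CD24medCD49fhigh, Thy-1+CD24medCD49fhigh and CD24medCD49fmed (CD24lowCD49fmed in the study's methods), with 3 arrays each. The luminal populations were CD24medCD49f-/low, with 2 arrays, and CD24highCD49fmed, with 3. Staining included CD45, CD31 and Ter119, and cells were sorted a second time. The study's methods also list an antibody to CD140α. The gates on these antigens are not given in the labels. The labels name no animal for a replicate, so p-values measure the spread between these arrays only.

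Values are the authors' log2 intensities after subtraction of each probe set's mean over the 14 arrays, so that 0 is that mean and a value says nothing about how strongly a gene was detected. Only probe sets that varied at least 4-fold between arrays are in the table (the smallest range was 2.0 log2), so each member varied by selection, and so did every other row. Genes called measured below are those with a row in this filtered table, and others may have been removed by the filter. Lineage genes separated the 5 luminal arrays from the 9 basal ones: the medians of 9 basal genes lay between -2.75 and -2.46 in luminal arrays and between 0.36 and 1.99 in basal arrays. Kit and Elf5, genes of luminal progenitors, were higher in both CD24medCD49f-/low arrays (Kit 3.24 and 3.30) than in the CD24highCD49fmed arrays (Kit 1.60 to 2.34), although the design text gives the name of luminal progenitors to the second population. Populations are therefore called by their gates. Replicates 1 and 3 of Thy-1+CD24medCD49fhigh stood apart, with medians over all 7190 rows of -0.74 and -0.51, where the other 12 arrays lay between -0.15 and 0.28.

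**Figure D1:**
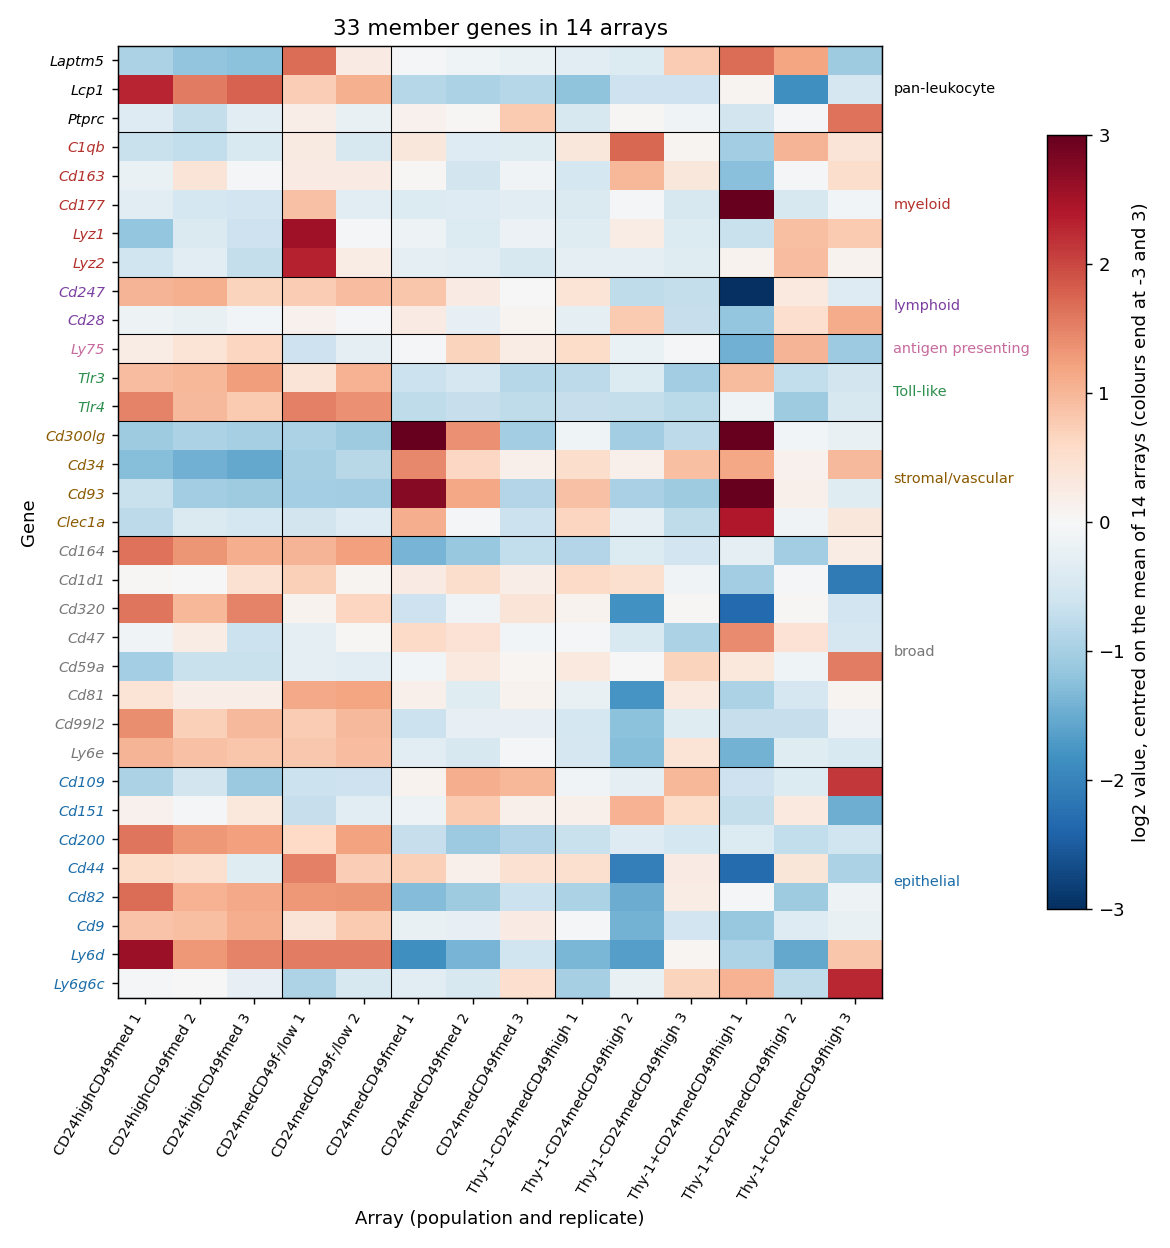
Log2 values of the 33 members (rows, grouped by list) in 14 arrays (columns, by population and replicate), centred on each probe set's mean and coloured from -3 to 3. Ly6d, Lcp1, Tlr4, Cd82, Cd164 and Cd200 are above 0 in all 5 luminal arrays, while the highest values of Cd93 and Cd300lg lie in replicate 1 of Thy-1+CD24medCD49fhigh and of CD24medCD49fmed.

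Between the lineages, the members that were higher in luminal cells came mostly from the lists of epithelial and broadly expressed antigens (4 of 8 and 5 of 8) and included both Toll-like receptors, and 3 of 4 vascular antigens were lower. Of the 33 members, 18 passed the threshold (two-sided limma test, adjusted p under 0.05 over all 7190 rows), 13 higher and 5 lower in luminal cells. That is 54.5% of members, beside 45.1% of all rows (27.7% higher and 17.4% lower). The median log2 difference was 0.28 over members and 0.33 over all rows, a general shift against which single differences should be read. In 11 members the luminal and basal arrays did not overlap in the average per gene, 9 with luminal above basal and 2 below. The share over all rows was 26% (16.5% and 9.51%). Of the 18 calls, 11 were kept under all 22 alternatives tried (Ly6d, Lcp1, Cd82, Tlr4, Cd164, Cd200, Cd99l2, Tlr3, Ly6e, Cd9 and Cd34), and 7 were lost under at least 1 of them (Cd300lg, Cd93, Cd247, Cd59a, Cd109, Cd320 and Cd81).

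**Figure D2:**
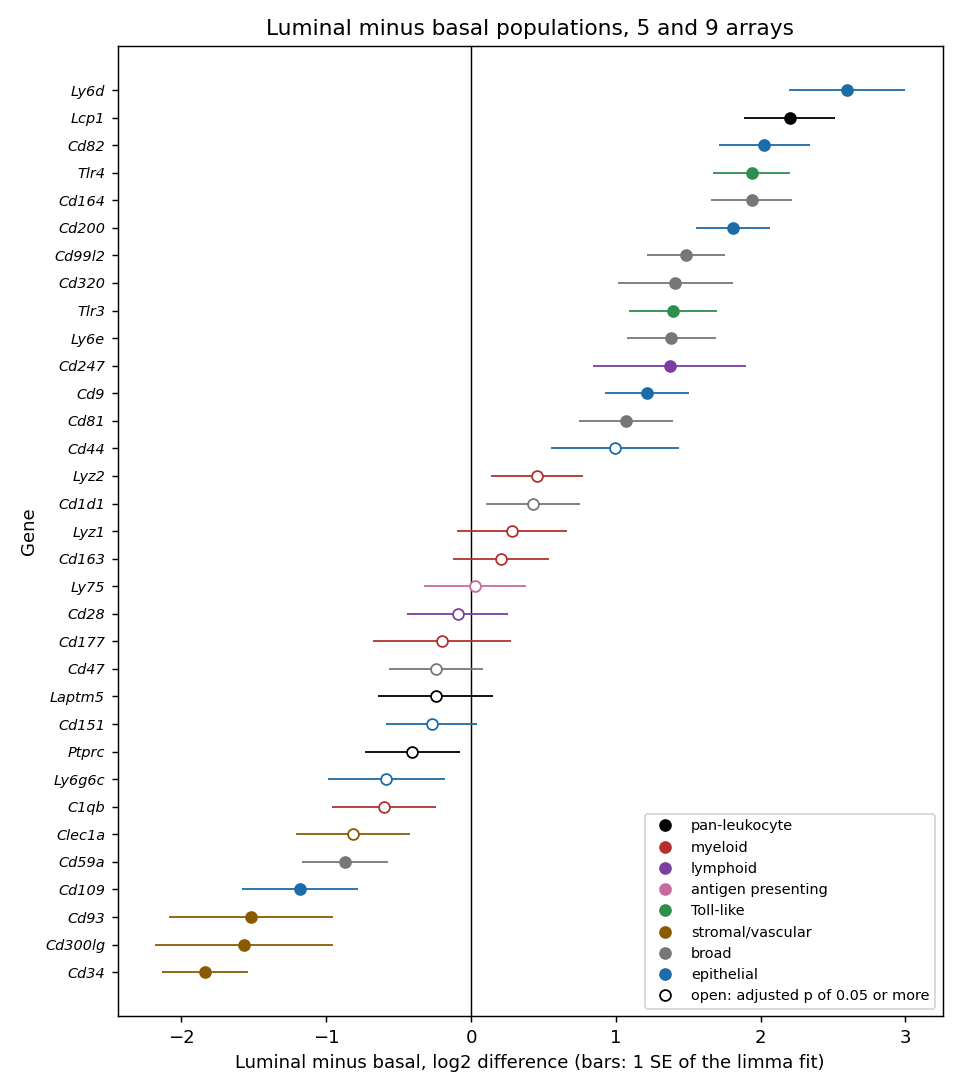
Difference between luminal and basal populations (log2, x axis) for each of the 33 members, as the mean of 2 luminal population means minus the mean of 3 basal ones over 14 arrays; bars are 1 SE of the limma fit, colours are lists and open circles did not pass the threshold. The differences run from -1.84 for Cd34 to 2.60 for Ly6d, with the myeloid genes between -0.60 for C1qb and 0.45 for Lyz2.

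Of 8 antigens listed as epithelial, 4 were higher in luminal cells, 1 was lower and 3 did not pass, with a median difference of 1.10. Ly6d, a Ly6 protein of lymphocytes and of several epithelia, differed most of all members, by 2.60 log2 (SE 0.40, limma adjusted p = 3.27e-05). Its array values were 2.57, 1.30 and 1.50 in CD24highCD49fmed and 1.53 and 1.53 in CD24medCD49f-/low cells. The basal values were -1.84, -1.40 and -0.59 in CD24medCD49fmed, -1.37, -1.65 and 0.07 in Thy-1-CD24medCD49fhigh and -0.93, -1.55 and 0.83 in Thy-1+CD24medCD49fhigh cells. Every luminal array thus lay above every basal array, and replicate 3 was the highest in each basal population. Krt19, a keratin of luminal cells, was also highest in replicate 3 of each basal population (0.54, 1.15 and 0.59, where the other 6 basal arrays lay between -2.84 and -1.28), and its part in the basal Ly6d values was not tested.

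The tetraspanin gene Cd82 ranged from 1.05 to 1.69 (median 1.29) in luminal and from -1.50 to 0.22 (median -0.95) in basal arrays. Cd200, a ligand that dampens myeloid cells through its receptor, ranged from 0.60 to 1.62 (median 1.24) and from -1.08 to -0.38 (median -0.66). The lineages were separated without overlap for both genes, with differences of 2.03 (SE 0.32, limma adjusted p = 3.53e-05) and 1.81 (SE 0.26, limma adjusted p = 1.21e-05). Cd9, another tetraspanin, had a narrower gap, with luminal values of 0.38 to 1.09 and basal values of -1.41 to 0.25 (difference 1.21, SE 0.29, limma adjusted p = 0.00222).

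Cd109, a lipid-anchored co-receptor of the TGF-beta pathway, was the single epithelial antigen that was lower in luminal cells, by 1.18 log2 (difference -1.18, SE 0.40, limma adjusted p = 0.0214). Luminal values lay between -1.10 and -0.56 and basal values between -0.61 and 2.12, so that the groups touched. The call was lost on leaving out either CD24medCD49f-/low array or replicate 3 of CD24highCD49fmed (limma adjusted p from 0.0501 to 0.0748). The highest value, 2.12, was that of replicate 3 of Thy-1+CD24medCD49fhigh. In the same array the median of 7 fibroblast genes was 2.89, with 6 of 7 above 0, where the other 8 basal arrays had medians between -0.22 and 0.78. Their part in the result was not tested.

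Cd44, the hyaluronan receptor, Cd151, a tetraspanin partner of laminin-binding integrins, and Ly6g6c, another Ly6 gene, did not pass. Cd44 and Ly6g6c passed with array weights and without replicate 2 of Thy-1+CD24medCD49fhigh, and Cd44 also without replicate 1 of Thy-1-CD24medCD49fhigh. For Cd44 the difference was 0.99 (SE 0.44, limma adjusted p = 0.0704). Its lowest values came from replicate 1 of Thy-1+CD24medCD49fhigh (-2.31) and replicate 2 of Thy-1-CD24medCD49fhigh (-2.06), and the other 7 basal arrays lay between -0.96 and 0.71.

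Among 8 broadly expressed antigens, 5 were higher in luminal cells, 1 was lower and 2 did not pass (median difference 1.23). Cd164, a sialomucin of endosomes and the cell surface, was 1.94 higher (SE 0.28, limma adjusted p = 1.66e-05), with luminal values of 1.02 to 1.64 (median 1.22) and basal values of -1.39 to 0.21 (median -0.75). In replicate 1 of Thy-1+CD24medCD49fhigh its 2 probe sets disagreed, at -1.80 and 1.19. The second value lay above luminal values of that probe set, such as 0.66 in replicate 3 of CD24highCD49fmed. The lineages were thus separated for Cd164 in the average of its probe sets only. Cd99l2, an adhesion protein related to CD99, and Ly6e were higher by 1.48 (SE 0.27, limma adjusted p = 0.000192) and 1.38 (SE 0.31, limma adjusted p = 0.0011), without overlap of the lineages.

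Cd320, the receptor that takes up cobalamin bound to transcobalamin, was higher in luminal cells by 1.41 log2 (SE 0.40, limma adjusted p = 0.0071), and the tetraspanin gene Cd81 by 1.07 (SE 0.33, limma adjusted p = 0.012). Without replicate 2 of CD24medCD49f-/low neither passed (1.28 and 1.06, limma adjusted p = 0.0538 and 0.0556). Cd59a, an inhibitor of the complement membrane attack complex, was lower, with luminal values of -1.01 to -0.27 and basal values of -0.13 to 1.53 (difference -0.87, SE 0.30, limma adjusted p = 0.0225). Cd59a overlapped in a single one of its 2 probe sets, with 0.0015 in replicate 1 of CD24medCD49f-/low and -0.55 in replicate 2 of Thy-1-CD24medCD49fhigh. It lost the call without either CD24medCD49f-/low array or without replicate 1 of CD24highCD49fmed (limma adjusted p from 0.0601 to 0.0912). Cd47, the signal that restrains phagocytes, and Cd1d1, which presents lipid antigens, did not pass. Cd1d1 did so with array weights and without replicate 2 of Thy-1+CD24medCD49fhigh.

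Both Toll-like receptor genes of the table were higher in luminal cells. Tlr4, the receptor for bacterial lipopolysaccharide, was 1.48, 0.96 and 0.78 in CD24highCD49fmed and 1.52 and 1.37 in CD24medCD49f-/low arrays. The 9 basal arrays lay between -1.08 and -0.13 (median -0.71), and 6 of them between -0.81 and -0.69. The difference was 1.94 log2 (SE 0.26, limma adjusted p = 8.12e-06), the smallest p of all members. In the average of its 3 probe sets no basal array reached a luminal one. A single probe set had replicate 1 of Thy-1+CD24medCD49fhigh (0.66) above replicate 3 of CD24highCD49fmed (0.42). Tlr3, the receptor for double-stranded RNA, differed by 1.39 (SE 0.31, limma adjusted p = 0.00106). Its luminal values of 0.38 to 1.25 (median 1.00) were above all basal values of -1.03 to -0.41 except the 0.94 of replicate 1 of Thy-1+CD24medCD49fhigh.

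Of 13 genes listed for all leukocytes, 3 had a row after the filter, and they went different ways between the lineages. Lcp1, an actin-bundling protein of leukocytes that some epithelia also make, was higher in luminal cells by 2.20 (SE 0.31, limma adjusted p = 1.32e-05). Its values were 2.28, 1.55 and 1.76 in CD24highCD49fmed and 0.73 and 1.06 in CD24medCD49f-/low arrays, and from -1.85 to 0.08 (median -0.86) in basal arrays. Every luminal array was above every basal one, and the 3 CD24medCD49fmed values, -0.86, -0.94 and -0.86, were nearly the same.

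Ptprc, which encodes the CD45 antigen itself, did not pass (difference -0.40, SE 0.33, limma adjusted p = 0.318). Of the alternatives, only array weights gave Ptprc a call. It was -0.39, -0.72 and -0.31 in CD24highCD49fmed, 0.19 and -0.22 in CD24medCD49f-/low and 0.12, 0.04 and 0.77 in CD24medCD49fmed arrays. In the CD49fhigh populations it was -0.47, 0.04 and -0.10 without and -0.55, -0.03 and 1.63 with Thy-1. The highest value was thus again that of replicate 3 of Thy-1+CD24medCD49fhigh, while 12 of the 14 arrays lay between -0.72 and 0.19. Laptm5, a lysosomal membrane protein of blood cells, did not pass between the lineages either (difference -0.24, SE 0.40, limma adjusted p = 0.623) and is described with the luminal populations.

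None of the 5 myeloid genes measured passed between luminal and basal cells, and their median difference was 0.21. Of the alternatives, leaving out replicate 1 of Thy-1+CD24medCD49fhigh, alone or together with replicate 3, gave C1qb a call. Lyz2 had a call only without replicate 2 of CD24medCD49f-/low, a fit that leaves replicate 1 as the only array of that population. Lyz1 and Lyz2 encode lysozymes, of which Lyz2 is the macrophage and neutrophil enzyme and Lyz1 the Paneth cell enzyme of the gut. The genes are neighbours on chromosome 10 (RefSeq, GRCm38.p6), Lyz2 at chr10:117277541-117282272 and Lyz1 at chr10:117287795-117292868, 5523 bases apart. They are shown because their array profiles run together below. Lyz1, like Laptm5, C1qb and Cd151, was measured only by probe sets whose suffix marks possible cross-hybridization (2 for Lyz1), so that signal of one gene in the other's probes cannot be told apart. The 250 bases before each transcription start are given 5′ to 3′ on the gene's strand (minus), Lyz1 at chr10:117292869-117293118 and Lyz2 at chr10:117282273-117282522. Capitals mark ACTTCCT, the other strand of AGGAAGT, a motif that ETS factors such as the myeloid regulator Spi1 can bind. This motif was chosen after the sequences had been read.
Lyz1: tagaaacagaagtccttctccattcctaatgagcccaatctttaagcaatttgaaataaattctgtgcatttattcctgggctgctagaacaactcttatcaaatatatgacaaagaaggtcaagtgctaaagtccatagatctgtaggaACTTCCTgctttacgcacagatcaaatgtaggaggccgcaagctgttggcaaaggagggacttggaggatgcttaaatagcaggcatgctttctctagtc
Lyz2: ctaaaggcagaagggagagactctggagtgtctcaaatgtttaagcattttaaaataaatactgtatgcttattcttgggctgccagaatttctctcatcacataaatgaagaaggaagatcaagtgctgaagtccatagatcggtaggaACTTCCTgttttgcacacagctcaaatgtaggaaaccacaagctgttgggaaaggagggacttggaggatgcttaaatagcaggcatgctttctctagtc
The windows were identical at 152 of 250 positions when counted back from the start without gaps (60.8%), and at 92 of the 100 next to the start. On either strand the motif was in 6 of the 24 members with a window (C1qb, Cd247, Cd82, Lyz1, Lyz2 and Ptprc). It was in 8.8% of all 27025 genes with a window and 7.69% of all 32851 windows of that length. Since the motif was chosen with the Lyz1 and Lyz2 windows read, both were bound to be counted, and these shares are no test of enrichment. A match is a description of these letters, not of a bound site.

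Replicate 1 of CD24medCD49f-/low held the highest lysozyme values of the series. Lyz2 was 2.30 in this array and 0.22 in the other CD24medCD49f-/low array, and Lyz1 was 2.53 and -0.06. In CD24highCD49fmed arrays Lyz2 was -0.59, -0.33 and -0.72 and Lyz1 was -1.15, -0.43 and -0.62. The 9 basal arrays ranged from -0.49 to 0.93 for Lyz2 (median -0.27) and from -0.66 to 0.89 for Lyz1 (median -0.17), and replicate 2 of Thy-1+CD24medCD49fhigh was the highest basal array for both. Across the 14 arrays Pearson's r between the genes was 0.905, and 0.649 in the 9 basal arrays, a description that the array with both maxima and any shared probe signal enter.

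**Figure D3:**
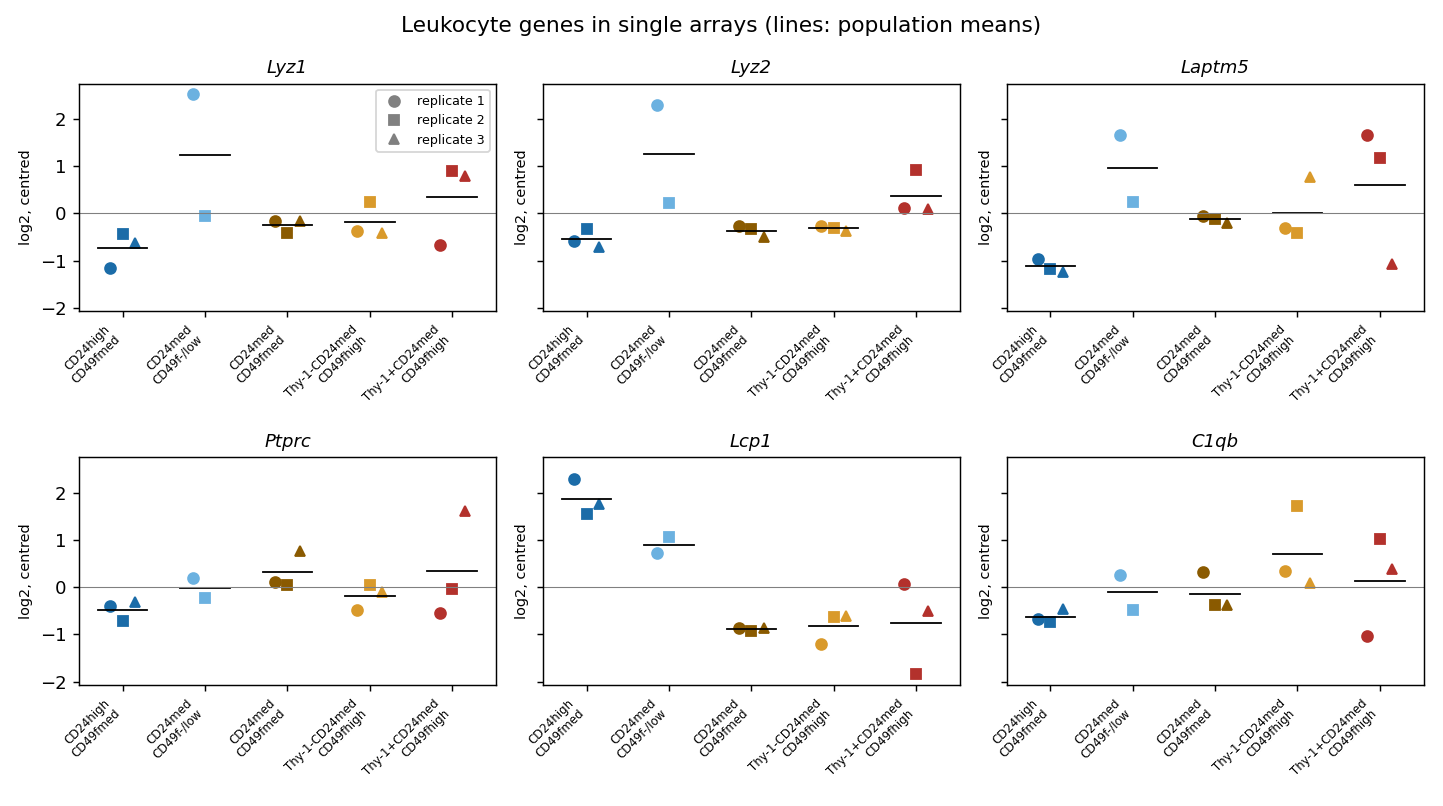
Log2 values, centred on each probe set's mean (y axis), of Lyz1, Lyz2, Laptm5, Ptprc, Lcp1 and C1qb in the 5 populations; symbols are replicates 1 to 3 and lines are population means. Replicate 1 of CD24medCD49f-/low is above 2 for both lysozyme genes, but 0.19 for Ptprc, and Lcp1 is highest in the 3 CD24highCD49fmed arrays.

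The other pan-leukocyte and myeloid genes were also above 0 in that array, but less so. All 5 myeloid members were positive in it (median 0.88), with Cd177, a neutrophil surface protein, at 0.88, the complement component C1qb at 0.26 and the haemoglobin scavenger receptor Cd163 at 0.25. In replicate 2 of the same population 2 of 5 were positive (median -0.06). Of 25 further myeloid genes listed, 2 were measured, and in replicates 1 and 2 Ctss was 0.55 and -0.13 and Arhgdib 0.15 and -1.31. H2-Aa, an MHC class II chain and the only one of 7 listed class II genes measured, was 0.26 and -0.13, and the fibroblast median was -0.15 and -1.20. Their part in the lysozyme values was not tested.

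The luminal populations differed in few members. Of 33, 2 passed between CD24highCD49fmed and CD24medCD49f-/low cells, both lower in CD24highCD49fmed (6.06%, beside 5.59% of all rows, 3.02% higher and 2.57% lower), and quantile normalization gave 3, of which 1 was higher. At an unadjusted p under 0.05 there were 13 members, and 27% of rows. The median difference was -0.04 over members and 0.14 over all rows. Laptm5, measured by a single probe set whose suffix marks possible cross-hybridization, was lower by 2.08 (difference -2.08, SE 0.36, limma adjusted p = 0.0219), with values of -0.96, -1.17 and -1.23 against 1.67 and 0.25. The groups did not overlap for Laptm5, as for 16 members (7 with CD24highCD49fmed above and 9 below), beside 47.4% of all rows (32.2% and 15.2%). Cd81 was 0.42, 0.20 and 0.21 against 1.14 and 1.18 (difference -0.89, SE 0.18, limma adjusted p = 0.031).

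Both calls were lost on leaving out certain single arrays. The Cd81 difference nevertheless stayed between -0.96 and -0.85 with each array left out. For Laptm5 it was -2.05 without replicate 2 and -2.02 without replicate 3 of CD24highCD49fmed. Without replicate 1 of CD24medCD49f-/low no member passed, and the Laptm5 difference was -1.37 (limma adjusted p = 0.119); without replicate 2 of CD24highCD49fmed or replicate 3 of CD24highCD49fmed none passed either. The lysozyme genes were lower in CD24highCD49fmed cells by similar amounts but with larger error, and did not pass (Lyz1 -1.97, SE 0.62, limma adjusted p = 0.0936; Lyz2 -1.81, SE 0.50, limma adjusted p = 0.0684). Without replicate 1 of CD24medCD49f-/low their differences were -0.68 and -0.77 (limma adjusted p = 0.516 and 0.338), and without replicate 2, which leaves the array with both maxima alone, -3.27 and -2.85 (0.00845 and 0.00731). All 5 myeloid members had differences below 0 (median -0.75). Lcp1 went the other way (0.97, SE 0.25, limma adjusted p = 0.0574), as did Cd320 (0.99, SE 0.25, limma adjusted p = 0.0574) and Ly75, an endocytic receptor of dendritic cells and thymic epithelium (0.87, SE 0.21, limma adjusted p = 0.0502). None of the 3 passed, but all 3 did with array weights and with the replicate block. Lcp1 also passed with single probe sets and with quantile normalization, and Ly75 without replicate 1 of CD24highCD49fmed. In these bulk samples fewer cells of a type and less RNA per cell cannot be told apart.

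Across the 14 arrays Lyz2 followed Laptm5 (r = 0.691) more than Ptprc (0.145), C1qb (0.253), Cd177 (0.310) or Lcp1 (-0.099). Laptm5 and Ptprc had r = -0.121, and Laptm5 and Lcp1 r = -0.350. Over the 9 basal arrays the values for Lyz2 were 0.464 with Laptm5, -0.027 with Ptprc, 0.234 with C1qb, 0.166 with Cd177 and -0.425 with Lcp1. Laptm5 there had r = -0.656 with Ptprc and 0.051 with Lcp1. These values describe 14 arrays that share population structure and array-wide medians.

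Cd247, the zeta chain of the T cell receptor complex, was the single lymphoid member of 2 that passed between lineages (difference 1.37, SE 0.53, limma adjusted p = 0.0404). Its luminal values lay between 0.68 and 1.06 and its basal values between -4.35 and 0.83. The lowest came from replicate 1 of Thy-1+CD24medCD49fhigh and the other 8 basal arrays were between -0.77 and 0.83. Without that array the difference was 0.89 (limma adjusted p = 0.0119), and without it and replicate 3 of the population 0.78 (0.0228). The call was lost on leaving out any of the 5 luminal arrays, or replicate 2 or 3 of CD24medCD49fmed or of Thy-1-CD24medCD49fhigh (limma adjusted p from 0.056 to 0.125). Cd28, the T cell costimulatory receptor, did not pass (luminal values -0.23 to 0.14, basal values -1.15 to 1.11). Ighm and Ms4a1, B cell genes, were -0.65 and -2.24 in the array with the low Cd247 value.

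Of 4 vascular antigens, 3 were lower in luminal cells and Clec1a did not pass; Cd34 kept its call under all 22 alternatives, whereas Cd300lg lost it under 16 and Cd93 under 12. Cd34, a sialomucin of endothelium and of several progenitor and stromal cells, was -1.28, -1.44 and -1.53 in CD24highCD49fmed and -0.995 and -0.82 in CD24medCD49f-/low arrays. It was 1.43, 0.63 and 0.16 in CD24medCD49fmed, 0.53, 0.14 and 0.91 in Thy-1-CD24medCD49fhigh and 1.16, 0.14 and 0.97 in Thy-1+CD24medCD49fhigh arrays. All 9 basal arrays were above all luminal ones, and the difference was -1.84 log2 (SE 0.29, limma adjusted p = 4.76e-05).

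Cd93, a lectin-like endothelial receptor, Cd300lg, an endothelial adhesion receptor, and Clec1a, a C-type lectin receptor, showed another pattern, with large differences between replicates. Cd300lg was 3.02, 1.36 and -1.04 in CD24medCD49fmed, 3.97, -0.08 and -0.22 in Thy-1+CD24medCD49fhigh and -0.14, -1.05 and -0.78 in Thy-1-CD24medCD49fhigh arrays, with all luminal values between -1.07 and -0.96. Cd93 was 2.74, 1.17 and -0.87, then 3.20, 0.15 and -0.36, then 0.87, -0.97 and -1.08 in the same order, with luminal values of -1.06 to -0.67. Within each basal population, replicate 1 was the highest for both genes. The differences were -1.57 (SE 0.61, limma adjusted p = 0.0433) and -1.52 (SE 0.56, limma adjusted p = 0.0347). Without replicate 1 of Thy-1+CD24medCD49fhigh they were -1.11 and -1.15 (limma adjusted p = 0.072 and 0.0679), and without replicate 1 of CD24medCD49fmed -1.25 and -1.23 (0.0833 and 0.0671). Leaving out any luminal array or replicate 2 of CD24medCD49fmed also ended both calls, as did replicate 1 of Thy-1-CD24medCD49fhigh, and for Cd300lg replicates 2 and 3 of that population (limma adjusted p up to 0.125 and 0.104). Cd93 had 4 probe sets, which ran from 1.00 to 5.44 in replicate 1 of Thy-1+CD24medCD49fhigh. Clec1a did not pass (-0.81, SE 0.40, limma adjusted p = 0.0984).

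The same arrays were highest for endothelial genes outside the members. Of 10 listed, 8 were measured (Pecam1, Cdh5, Kdr, Tek, Tie1, Esam, Emcn and Cldn5), and all 8 were above 0 in replicate 1 of Thy-1+CD24medCD49fhigh (median 2.94) and in replicates 1 and 2 of CD24medCD49fmed (2.79 and 0.89). In replicate 1 of Thy-1-CD24medCD49fhigh 7 of 8 were above 0 (0.96). In luminal arrays none was, with medians of -0.99 to -0.85. Over 14 arrays the median of these 8 genes had r = 0.993 with Cd93, 0.969 with Cd300lg, 0.922 with Clec1a and 0.708 with Cd34, and over the 9 basal arrays 0.995, 0.961, 0.905 and 0.702. Cd34 was above 0 in all 9 basal arrays, also where endothelial genes were low, at 0.16 in replicate 3 of CD24medCD49fmed (endothelial median -0.87) and 0.91 in replicate 3 of Thy-1-CD24medCD49fhigh (-0.78). Clec1a too was above 0 in 1 such array, replicate 3 of Thy-1+CD24medCD49fhigh (0.35, endothelial median -0.24). The part of endothelial RNA in the lineage differences of these 4 members was not tested.

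**Figure D4:**
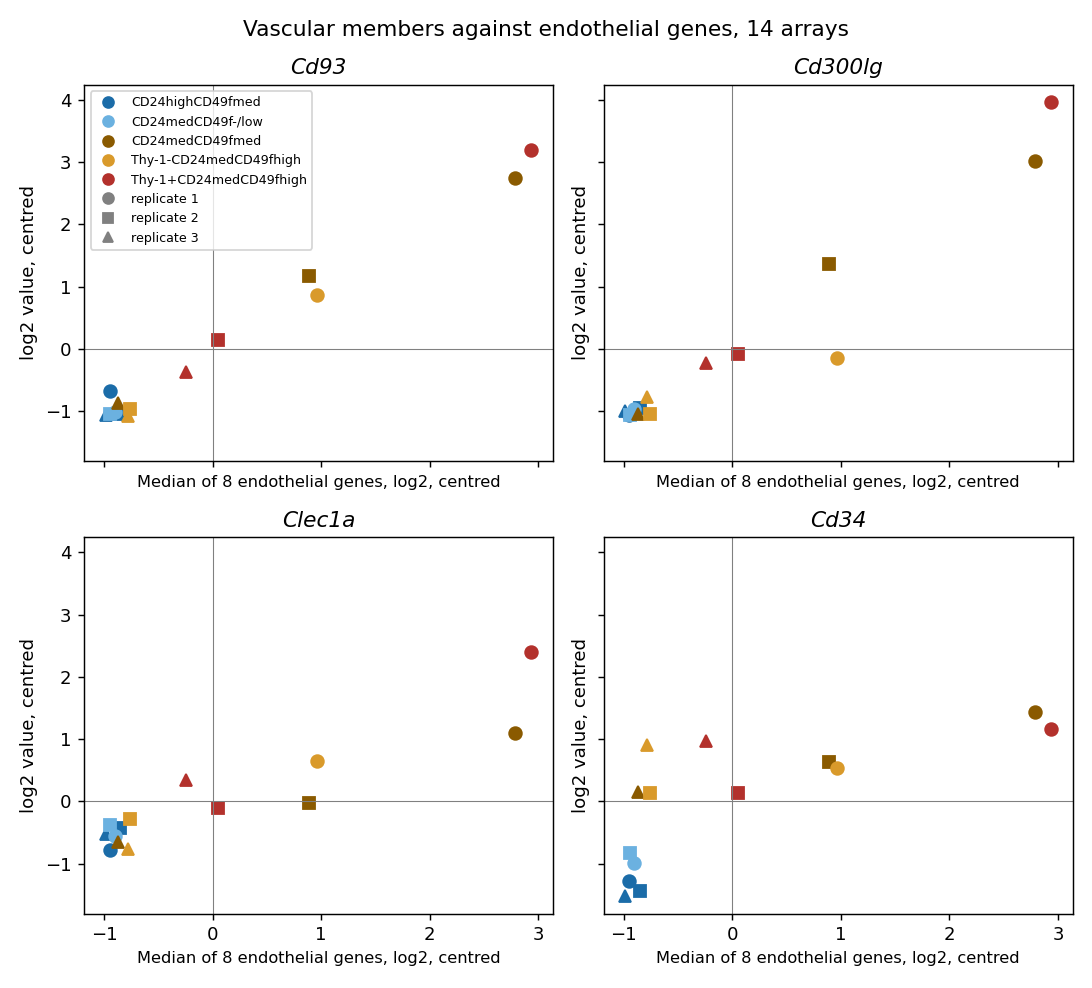
Log2 values of Cd93, Cd300lg, Clec1a and Cd34 (y axes) against the median log2 value of 8 endothelial genes (x axes) in 14 arrays, both centred; colours are populations and symbols replicates. Cd93 and Cd300lg lie near a line through all arrays, whereas Cd34 is above 0 in all 9 basal arrays.

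No member separated the basal populations at the threshold. Set against Thy-1-CD24medCD49fhigh arrays, 0 of 33 passed in Thy-1+CD24medCD49fhigh (limma, 0.0417% of all rows), and 1 did at an unadjusted p under 0.05 (5.29% of rows), namely Cd300lg, at 1.88 (SE 0.74, limma adjusted p = 0.739). Between Thy-1+CD24medCD49fhigh and CD24medCD49fmed cells it was 0 again (0% of rows), and 1 at the unadjusted p (5.33% of rows), Cd1d1 at -1.39 (SE 0.59, limma adjusted p = 0.548). Between Thy-1-CD24medCD49fhigh and CD24medCD49fmed cells it was 0 (0% of rows), and 1 unadjusted (1.17% of rows), Cd47 at -0.80 (SE 0.34, limma adjusted p = 0.999). Medians over members were 0.21, 0.12 and -0.08, and over all rows -0.42, -0.51 and -0.07. Without replicate 2 of Thy-1+CD24medCD49fhigh, Cd1d1 (-1.91, limma adjusted p = 0.0456) and Cd44 (-2.07, limma adjusted p = 0.0464) passed against CD24medCD49fmed, on 2 arrays that both have low medians.

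The 3 comparisons share arrays. The 4 vascular members had a median of 1.20 for Thy-1+CD24medCD49fhigh minus Thy-1-CD24medCD49fhigh, 0.06 for Thy-1+CD24medCD49fhigh minus CD24medCD49fmed and -0.84 for Thy-1-CD24medCD49fhigh minus CD24medCD49fmed. Without replicate 1 of Thy-1+CD24medCD49fhigh the first comparison's difference fell from 1.88 to 0.51 for Cd300lg and from 1.39 to 0.28 for Cd93. Without replicate 1 of CD24medCD49fmed the third comparison's difference for Cd300lg moved from -1.77 to -0.82. Cd247 had -1.13, -1.85 and -0.72, and without replicate 1 of Thy-1+CD24medCD49fhigh the first of these was 0.31. Cd177 had 1.31, 1.37 and 0.06, none past the threshold, and without replicate 1 of Thy-1+CD24medCD49fhigh the first and second of these were 0.05 and 0.10.

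Over all 5 populations, 13 members varied past the threshold (limma F test, adjusted p under 0.05), 39.4% beside 33.3% of all rows. Not all of these F test calls were kept under the alternatives. Cd9 and Cd320 lost theirs without any single one of the 3 CD24highCD49fmed arrays, and Ly6e without replicate 1 of that population. Tlr3 and Cd320 lost theirs with median centring. The 13 members were the 11 lineage genes whose luminal minus basal calls were kept throughout, with Cd320 and Lyz2. Lyz2 was the one that followed no lineage split (limma adjusted p = 0.0437), and without replicate 1 of CD24medCD49f-/low its limma adjusted p was 0.298. It lost the call on leaving out 10 of the 14 arrays in turn (0.0527 to 0.298), and with the replicate number as a block (0.0579).

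How much the members varied within a population differed widely, as it did over all rows. The median SD over members was 0.99 in Thy-1+CD24medCD49fhigh, 0.47 in Thy-1-CD24medCD49fhigh and 0.30 in CD24medCD49fmed, against 0.21 in CD24highCD49fmed and 0.22 in CD24medCD49f-/low cells (2 arrays). Over all rows it was 0.92, 0.45, 0.30, 0.21 and 0.15 in the same order, so that the spread of the members in the first 4 was close to that of the whole array. In Thy-1+CD24medCD49fhigh 16 of 33 members spanned more than 2 log2 between replicates, where the other 4 populations had 2, 2, 0 and 2 in that order. The widest were Cd247 (4.64), Cd300lg (4.18) and Cd177 (4.0) in Thy-1+CD24medCD49fhigh, Cd44 (2.55), Cd81 (2.07) and Cd93 (1.94) in Thy-1-CD24medCD49fhigh, and Cd300lg (4.06), Cd93 (3.61) and Clec1a (1.75) in CD24medCD49fmed cells. In luminal cells they were Ly6d (1.27), Cd44 (0.91) and Cd47 (0.89) in CD24highCD49fmed and Lyz1 (2.59), Lyz2 (2.08) and Laptm5 (1.42) in CD24medCD49f-/low cells.

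Single Thy-1+CD24medCD49fhigh arrays set many of these extremes. Replicate 1 held the highest value of 6 members and the lowest of 8, where it held the highest of 13.7% and the lowest of 35.1% of all rows. Cd177 was 3.52 in it and -0.48 and -0.07 in replicates 2 and 3, and no other array exceeded 0.88. In the same array, whose median over all rows was -0.74, Lyz2 was 0.115, Lyz1 -0.66, C1qb -1.04 and Cd163 -1.24. The probe sets of C1qb disagreed there, at -0.44 and -1.65. The myeloid genes thus did not move together in this array, while H2-Aa was 2.61 and Laptm5 1.67. Replicate 3 was instead the highest array for Ly6g6c (2.26), Cd109 (2.12), Ptprc (1.63), Cd59a (1.53) and Cd28 (1.11) and the lowest for Cd1d1 (-2.12) and Cd151 (-1.46). In replicate 2, where the median over all rows was 0.08, C1qb (1.03), Ly75 (1.02), Laptm5 (1.18), Lyz2 (0.93) and Lyz1 (0.89) were above 0, as was Ctss (1.80). Ptprc (-0.03), Cd163 (-0.04), Cd177 (-0.48) and Lcp1 (-1.85, its lowest value of all arrays) were below 0 in it. Thus 3 of 5 myeloid and 1 of 3 pan-leukocyte genes were above 0 there.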

How the data were processed

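RNA of sorted cells was extracted with Trizol and labelled by a two-cycle protocol (per the labels). The authors deposited 1 table of log2 intensities for the 14 arrays: by their methods, arrays were normalized with RMA in MIDAS, probe sets of low signal or small variation were removed and each remaining probe set was mean-centred. The submitters' notes also name GCRMA, whose version, like that of RMA, is not stated in the sources. Of 9645 probe sets, 8499 had 1 gene symbol in the platform annotation and were averaged per gene (6044 genes), and 199 with several symbols and 947 with none stayed single rows, giving 7190. Averaging weights disagreeing probe sets equally; 10 members had several and 23 had 1. Absolute signal over background was not used, since centring removes it, and the number of arrays limits precision.

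Two-sided moderated tests came from limma 3.58.1 (R 4.3.3; lmFit with contrasts and eBayes), with Benjamini-Hochberg adjustment over all 7190 rows and a threshold of 0.05, on the arrays of the groups compared, or on 14 arrays for luminal minus basal and for the F test. The test was checked on simulated data, with independent values and, for each row, the same spread in all arrays compared. That check cannot show how the unequal spread of these populations affects the p-values. Alternatives were array weights, a block for the replicate number, a joint fit of all arrays, single probe sets, median centring, quantile normalization, an absolute difference of 1 log2 or more and each array left out; omission of both Thy-1+CD24medCD49fhigh arrays with low medians was added after seeing the data.

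Members, gene lists and the rule for named genes (called members with the largest changes, where there were none those of smallest p, all members of the pan-leukocyte, epithelial and vascular lists, the widest ranges within populations, and Lyz1 with Lyz2) were chosen with earlier results of these data known. A part of the rule that ranked members by likeness to Tyrobp could not be applied. Other members are named as examples of their lists and were chosen after their values were seen. All 33 members matched RefSeq genes (GRCm38.p6) by gene ID. Figures were drawn with matplotlib 3.10.9 in Python 3.11.15.

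Replicate numbers were checked by correlating deviations from population means over all rows. They paired CD24medCD49fmed arrays with Thy-1+CD24medCD49fhigh (r = 0.388, 0.391, 0.386) and Thy-1-CD24medCD49fhigh arrays (0.374, 0.328, 0.558), every r being over 0.1. For the 2 CD24medCD49f-/low arrays r was also over 0.1 with CD24highCD49fmed (0.296 and 0.151), CD24medCD49fmed (0.221 and 0.144) and Thy-1+CD24medCD49fhigh (0.155 and 0.137). With 2 shared numbers each, these were not taken as paired.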

Additional observations from a re-analysis of the deposited data

How the results depend on the processing

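Luminal minus basal, the count of 18 members stayed between 16 and 20 under the other analysis settings and between 12 and 22 when single arrays were left out, with 17 without both Thy-1+CD24medCD49fhigh arrays of low median. Between CD24highCD49fmed and CD24medCD49f-/low cells the 2 calls became 0 with all 14 arrays in 1 fit, 5 with array weights, 1 with an absolute log2 difference of 1 or more, and 0 to 4 when arrays were left out, of which 4 (all lower) came without replicate 2 of CD24medCD49f-/low. There the replicate block gave 7, 3 of them higher; Lyz1 (-2.03) and Lyz2 (-1.72) passed in it (limma adjusted p = 0.000489 and 0.000457), and the 2 shared numbers (r = 0.296 and 0.151) were taken only as numbers. For Thy-1+CD24medCD49fhigh minus CD24medCD49fmed, leaving out arrays gave 0 to 2 calls, and the 0 calls of the other basal comparisons held under every alternative. The F test count of 13 became 24 with array weights and 9 to 20 when arrays were left out, 20 without replicate 2 of Thy-1+CD24medCD49fhigh. With the replicate block, the paired comparisons of CD24medCD49fmed with each CD49fhigh population kept 0 calls, luminal minus basal had 19 (Clec1a added), the F test 15 (Lyz2 lost) and Thy-1+CD24medCD49fhigh minus Thy-1-CD24medCD49fhigh 0, whose numbers did not pair (r = -0.002, -0.16 and 0.245). The causes were not tested.

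Only some genes were followed singly. They were the called members, Lyz1, Lyz2, Lcp1 and Ptprc between the luminal populations, and the members of smallest p in the basal comparisons. Luminal minus basal, only called members entered, so gains there were not counted. For the genes followed, 633 recomputed values kept their direction and side of the threshold, 58 lost and 10 gained a call, and 1 turned. This was Cd247 for Thy-1+CD24medCD49fhigh minus Thy-1-CD24medCD49fhigh, which ran from -2.01 to 0.31 when arrays were left out and was 0.31 without replicate 1 of Thy-1+CD24medCD49fhigh. The cause was not tested. Small groups, 2 arrays of CD24medCD49f-/low cells and centred values limit what these comparisons can show.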
